A study of Mus musculus with 45 samples.

Results

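The genes described here are those that were nearly silent in the liver of untreated mice and were read in every mouse at the highest dose of the chlorinated dioxin 2,3,7,8-tetrachlorodibenzo-*p*-dioxin, or TCDD. Levels are CPM, the reads on a gene divided by all reads on genes of that mouse and multiplied by 1000000. A gene was a member when its mean was under 0.2 CPM in the 5 vehicle mice and at least 0.5 CPM in the 5 mice at 30 µg/kg, with at least 3 reads in each of those 5 mice. Of 39179 genes, 24486 were under 0.2 CPM in the vehicle group, and 2771 of these had more than 4 reads in some mouse. The mean at 30 µg/kg reached 0.5 CPM for 227 of them, and 202 also had the 3 reads in each mouse. *Col9a2*, *Fam83a* and *Hmx1* were left out by name, which gave 199 members. *Cyp1* and other *Col* genes and *Nptx1* were also to be left out, and none of them met the thresholds. The vehicle and 30 µg/kg values chose these genes, so those values are given as description and were not tested.

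TCDD acts through the aryl hydrocarbon receptor (AhR), a transcription factor that enters the nucleus after binding a ligand, pairs with ARNT and binds DNA at dioxin response elements. Its best known targets in the liver are the *Cyp1* enzymes of xenobiotic metabolism, and it also induces its own repressor, *Ahrr*. A gene that is silent in a bulk liver sample may come on in hepatocytes or arrive with another cell type, and a rise in RNA per cell cannot be told apart from a rise in the number of cells that hold it.

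Female C57BL/6 mice received sesame oil, the vehicle, or TCDD by gavage every 4 days, and the livers analysed were those of day 28. The doses were 0.01, 0.03 and 0.1 µg/kg, then 0.3, 1 and 3 µg/kg, and lastly 10 and 30 µg/kg, which with the vehicle made 9 groups of 5 mice. The labels also call all mice ovariectomized and carry the word daily, neither of which is in the study's methods. Each mouse is a separate sample of its group. The libraries held 11767284 to 56509899 reads on genes, so that 1 read was worth 0.0850 CPM in the smallest library and 0.0177 CPM in the largest. The 5 vehicle libraries held 86155308 reads together, and 3 reads among them, the limit that a count of 0 allows, correspond to 0.0348 CPM. Intervals from counts cover counting error only.

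Hepatocyte genes and exposure markers, chiefly *Cyp1a1*, were checked against the labels, and in 1 library *Cyp1a1* went against its dose. The summed level of 8 hepatocyte genes lay between 110213 and 142007 CPM in the vehicle mice and between 117516 and 166364 CPM at 30 µg/kg. Most of it was *Alb*, with means of 106099 and 116120 CPM. The mean of *Apoa1* went from 5882 to 2139 CPM, *Cps1* from 6914 to 3979 CPM and *Fgb* from 3632 to 2282 CPM. *Tat* went from 1799 to 1298 CPM, *Ttr* from 5880 to 5349 CPM, *Hnf4a* from 441 to 552 CPM and *Serpina1a* from 532 to 535 CPM. *Cyp1a1*, which is not a member, averaged 7.11 CPM in the vehicle group, 805 CPM at 0.1 µg/kg and 8371 CPM at 30 µg/kg. A library stood apart among the mice at 0.01 µg/kg, the group used below as the reference. In replicate 5 of that group *Cyp1a1* was at 70.4 CPM, against 1.09 to 4.47 CPM in the other 4 mice. The mice at 0.03 µg/kg had 24.9 to 69.0 CPM, so that by *Cyp1a1* this library lay above every mouse of the next dose. By *Cyp1a2* it did not, with 1946 CPM against 2125 to 2539 CPM at 0.03 µg/kg and 917 to 1922 CPM in the other 4 mice. *Tiparp* was at 13.4 CPM against 9.76 to 11.7 CPM in those 4 mice, and *Nqo1* at 14.8 CPM against 13.5 to 16.5 CPM. Members summed to 86.5 CPM in this library, against 24.5 to 47.4 CPM in the other 4 mice. The summed level of 10 monocyte and macrophage markers was 707 CPM in the highest mouse of that group and reached 175 CPM in the vehicle group. Counts are given with and without this mouse where it changes them.

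Dose of onset was read from mice that the choice of genes did not use. All 35 mice at 0.01 to 10 µg/kg were fitted in 1 edgeR quasi-likelihood model, each dose was compared with 0.01 µg/kg, and a gene was called at a fold change of at least 2 and a Benjamini-Hochberg adjusted p under 0.05 over 17365 genes. Onset is the lowest dose at which a member was called and stayed called up to 10 µg/kg. Among the 199 members, 195 had enough reads to be tested, and *Mep1a*, *Xpnpep2*, *Fgfbp1* and *Cfap44* did not.

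Promoters of 4 members with different onsets are shown so that the core of the dioxin response element can be seen where it occurs. *Tent5b* had its onset at 0.3 µg/kg, *Ahrr* at 1 µg/kg, *Zmynd10* at 3 µg/kg and *Duox1* at 10 µg/kg. Each sequence is the 250 bases before the RefSeq start on GRCm38.p6, and capitals mark GCGTG or its reverse complement CACGC.
Tent5b, chr4:133479883-133480132, plus strand: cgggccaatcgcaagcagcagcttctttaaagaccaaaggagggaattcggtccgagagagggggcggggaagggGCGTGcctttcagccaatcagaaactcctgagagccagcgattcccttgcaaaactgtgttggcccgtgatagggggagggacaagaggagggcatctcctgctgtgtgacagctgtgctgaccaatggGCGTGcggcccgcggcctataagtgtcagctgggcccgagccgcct
Ahrr, chr13:74292332-74292581, minus strand: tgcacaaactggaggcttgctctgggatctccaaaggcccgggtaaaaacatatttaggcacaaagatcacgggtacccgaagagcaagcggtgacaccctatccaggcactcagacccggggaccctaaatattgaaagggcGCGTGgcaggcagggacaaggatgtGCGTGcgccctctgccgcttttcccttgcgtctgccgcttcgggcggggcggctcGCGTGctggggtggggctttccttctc
Zmynd10, chr9:107547054-107547303, plus strand: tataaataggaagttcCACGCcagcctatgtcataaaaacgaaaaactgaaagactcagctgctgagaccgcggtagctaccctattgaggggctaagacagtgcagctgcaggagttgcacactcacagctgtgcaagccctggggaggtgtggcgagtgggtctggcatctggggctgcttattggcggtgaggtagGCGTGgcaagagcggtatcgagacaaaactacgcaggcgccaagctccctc
Duox1, chr2:122315422-122315671, plus strand: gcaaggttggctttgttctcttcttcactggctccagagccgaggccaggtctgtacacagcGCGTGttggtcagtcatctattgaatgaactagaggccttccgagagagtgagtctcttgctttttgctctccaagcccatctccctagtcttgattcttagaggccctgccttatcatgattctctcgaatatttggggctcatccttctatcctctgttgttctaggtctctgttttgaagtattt

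RefSeq promoters were matched for 148 members and searched on both strands over 300 bases, 250 before and 50 after each start. GCGTG was present for 59 of the 148 members, or 39.9%, and for 9500 of the 27025 genes in the table, or 35.2%. The longer TNGCGTG, which contains GCGTG, was present for 8 members, or 5.41%, and for 5.84% of all genes. The share with GCGTG was 1 of 2 members with onset at 0.3 µg/kg, 2 of 10 at 1 µg/kg, 11 of 19 at 3 µg/kg, 9 of 29 at 10 µg/kg and 35 of 84 without an onset. The share did not rise with earlier onset, and a match is a description of the letters in this window.

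Higher doses brought more members above the 0.01 µg/kg group. No member was called at 0.03 or 0.1 µg/kg with edgeR or with DESeq2, where 2 and 4 members had an unadjusted edgeR p under 0.05 in the upward direction. The same tests called 0% and 0.0173% of all genes higher. At 0.3 µg/kg, 4 of the 195 members were called higher, against 0.138% of all genes. At 1, 3 and 10 µg/kg the count was 18, 46 and 83 members, against 0.582%, 1.45% and 3.02% of all genes. Of the 2672 tested genes that were under 0.2 CPM in the vehicle group, members included, 0.150% were called at 0.3 µg/kg and 0.786%, 2.47% and 5.31% at the higher doses. The median log2 fold change of the members was 0.27, 0.74 and 1.17 at 1, 3 and 10 µg/kg, and over all genes it was -0.02, -0.01 and -0.01. A member was called lower in 1 case, *Kntc1* at 3 µg/kg, where 0.795% of all genes were called lower. Without replicate 5 of the 0.01 µg/kg group, 53 members were called at 3 µg/kg and 94 at 10 µg/kg, and 81 of those 94 were among the 83.

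**Figure D1:**
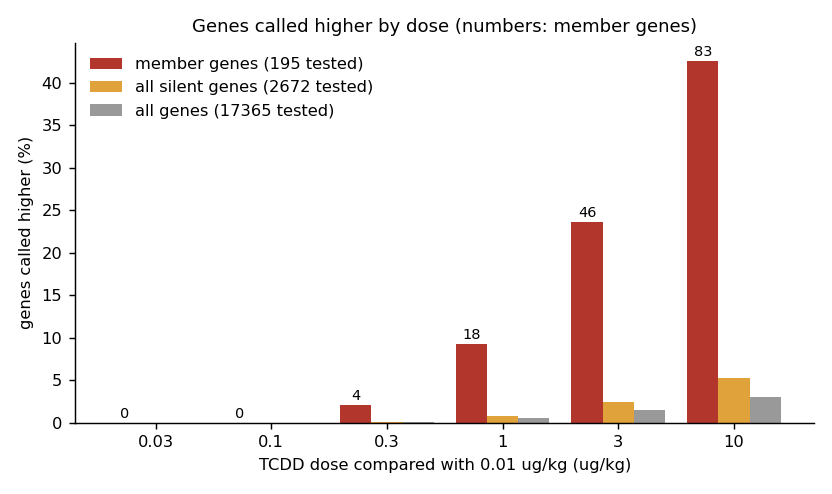
Percentage of genes called higher than at 0.01 µg/kg (y axis) at each TCDD dose (x axis) for the members, for all genes under 0.2 CPM in the vehicle group and for all genes tested, with the number of members above their bars. The number of members rises from 0 at 0.03 and 0.1 µg/kg to 83 at 10 µg/kg.

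The 83 members with an onset split into 4, 14, 24 and 41 with an onset at 0.3, 1, 3 and 10 µg/kg. The other 112 tested members had none, although *Ubd*, *H2-M2*, *Gpr171* and *Cxxc4* among them passed the test at 3 µg/kg and not at 10 µg/kg. Whether the members were silent outside the vehicle group was also read from unused mice. The mean was under 0.2 CPM for 116 of the 199 members at 0.01 µg/kg, for 119 at 0.03 µg/kg and for 102 at both doses. It was at least 0.5 CPM for 20 members at 0.01 µg/kg, 18 of which belong to dividing cells and are described further on.

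**Figure D2:**
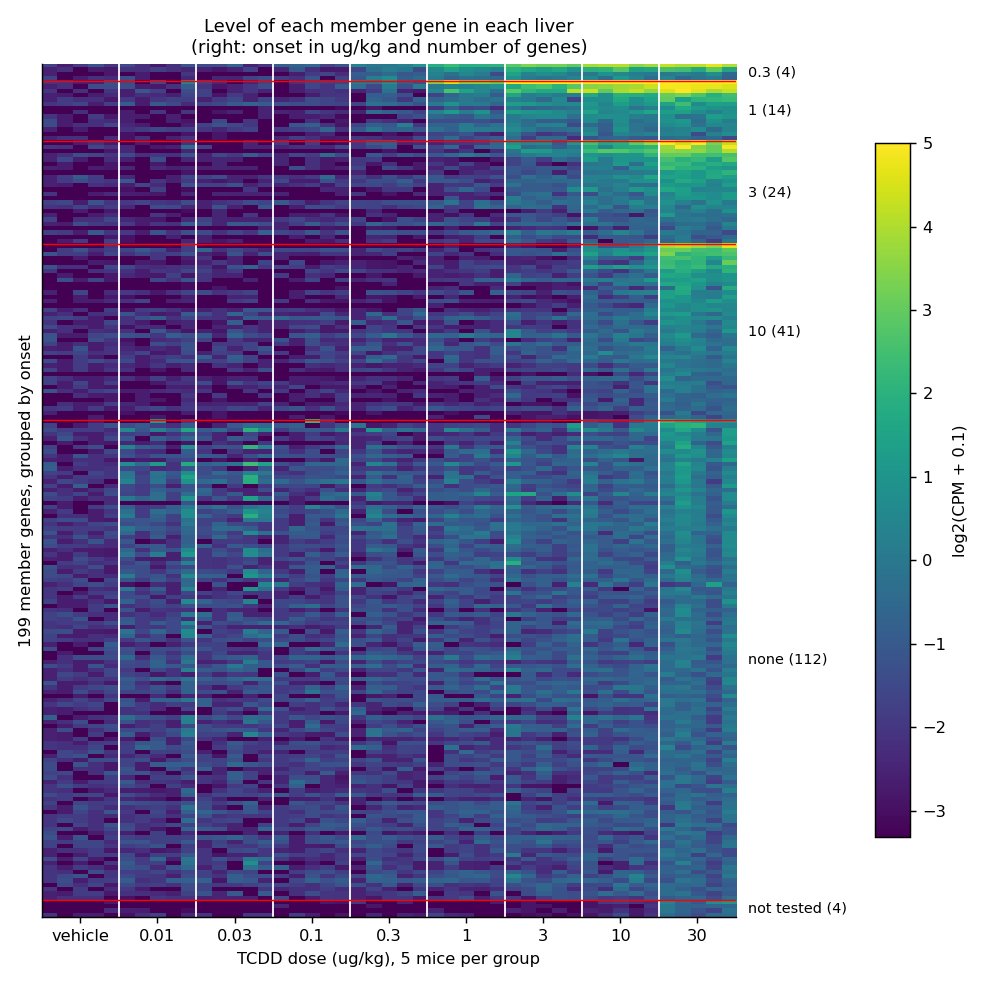
Level of each of the 199 members (rows) in each of the 45 livers (columns, 5 per group), as log2(CPM + 0.1), with rows grouped by onset and, within a group, ordered by the mean at 30 µg/kg. Rows with an onset turn from dark to lighter colours around their onset dose, while many of the 112 rows without an onset already show reads in single mice at 0.01 and 0.03 µg/kg.

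The earliest onset, at 0.3 µg/kg, belonged to *Insl6*, *Sorcs3*, *Tent5b* and *Igkv6-32*. *Insl6* (ENSMUSG00000050957, chr19:29321344-29325356, GRCm38) encodes an insulin-like peptide known from male germ cells. Its levels were 0.256, 0.118, 0.0496, 0.130 and 0.359 CPM in the 5 mice at 0.01 µg/kg. At 0.3 µg/kg they were 1.23, 0.912, 0.930, 1.15 and 2.08 CPM, all above the 0.01 µg/kg mice. The log2 fold change was 2.48 (SE 0.323, adjusted p = 1.41e-05 by edgeR). *Insl6* kept climbing, with means of 4.09, 8.88 and 14.9 CPM at 1, 3 and 10 µg/kg and 19.7 ± 3.98 CPM (SD, n = 5) at 30 µg/kg. The steps from 0.3 to 1 µg/kg (log2 fold change 1.70, adjusted p = 0.000333 by edgeR) and from 1 to 3 µg/kg (1.09, adjusted p = 0.0201) also passed the test. Per kilobase of exon it had the highest level of any member at 30 µg/kg, 27.8 CPM per kb, followed by *Pnliprp1* at 10.6 CPM per kb and *Ahrr* at 8.82 CPM per kb.

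*Sorcs3* (chr19:48206025-48805505), a sorting receptor of neurons, read 0.128, 0.118, 0.198, 0.130 and 0.0844 CPM at 0.01 µg/kg. At 0.3 µg/kg it read 0.231, 0.738, 1.05, 0.841 and 0.260 CPM, without overlap (log2 fold change 2.28, SE 0.487, adjusted p = 0.0300 by edgeR). Its family member *Sorcs2* had its onset at 10 µg/kg, where the 5 mice lay between 0.476 and 0.666 CPM against 0 to 0.118 CPM at 0.01 µg/kg.

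*Tent5b*, a poly(A) polymerase, and *Igkv6-32*, an immunoglobulin kappa variable segment, reached their highest group mean below 30 µg/kg. *Tent5b* read 0.288, 0.0588, 0, 0 and 0.0844 CPM at 0.01 µg/kg and 0.385, 1.04, 1.55, 0.459 and 0.623 CPM at 0.3 µg/kg, without overlap. It rose by 2.95 on the log2 scale at 0.3 µg/kg (SE 0.556, adjusted p = 0.00785 by edgeR), and its mean at 10 µg/kg was 146% of that at 30 µg/kg. *Igkv6-32* read 0, 0.0588, 0, 0 and 0.148 CPM at 0.01 µg/kg and 0.462, 0.477, 0.658, 0.382 and 0.468 CPM at 0.3 µg/kg (log2 fold change 2.98, SE 0.595, adjusted p = 0.0194 by edgeR). All 5 mice at 0.3 µg/kg were above all 5 at 0.01 µg/kg. Its mean at 3 µg/kg was 153% of that at 30 µg/kg. Immunoglobulin segments resemble each other closely, so reads may be divided among them in an uncertain way. The 4 calls at 0.3 µg/kg are sensitive to the mice in the fit. Leaving out replicate 3 at that dose left 1 of them, leaving out replicate 1 at 0.01 µg/kg left 2, and fitting only the 10 mice compared left 0, where 14 of the 195 members had an unadjusted p under 0.05 in the full model.

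**Figure D3:**
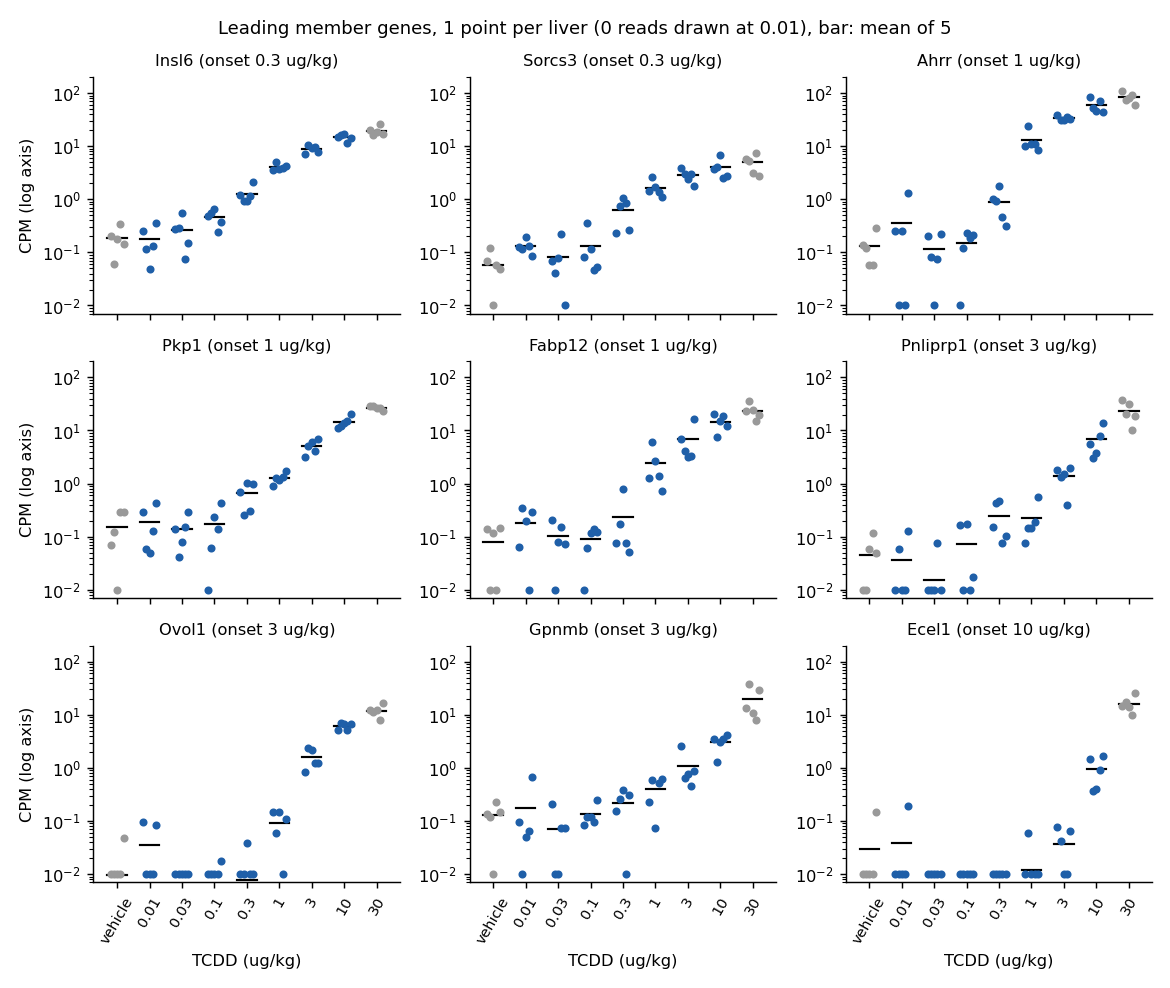
CPM on a log axis in each of the 45 livers by TCDD dose for 9 members, with a bar at the mean of 5 mice, grey points for the vehicle and 30 µg/kg groups that chose the genes, and 0 reads drawn at 0.01. *Insl6* climbs over the whole range from 0.1 µg/kg, *Ahrr* jumps between 0.3 and 1 µg/kg, and *Ecel1* stays at or near 0 up to 3 µg/kg.

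At 1 µg/kg the onset list of 14 was led by *Ahrr* (ENSMUSG00000021575, chr13:74211118-74292331), the AhR repressor, which competes with AhR for ARNT. It read 0.256, 0, 0.248, 0 and 1.29 CPM at 0.01 µg/kg, the last in the mouse that stood apart. At 0.3 µg/kg it read 1.00, 0.912, 1.74, 0.459 and 0.312 CPM, which overlaps the reference and was not called (log2 fold change 0.89, adjusted p = 0.913 by edgeR). At 1 µg/kg it read 10.2, 23.6, 11.2, 10.8 and 8.46 CPM, far above every lower dose (log2 fold change 4.67, SE 0.428, adjusted p = 3.02e-09 by edgeR). The step from 0.3 to 1 µg/kg was 3.78 on the log2 scale (SE 0.409, adjusted p = 1.82e-06 by edgeR), in a comparison where 4 members and 0.0864% of all genes were called. The mean went on to 33.4, 59.3 and 83.3 CPM at 3, 10 and 30 µg/kg.

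*Pkp1* (chr1:135871395-135919207), a desmosomal plaque protein of stratified epithelium, rose at each of the tested steps above 1 µg/kg. Its 5 mice lay between 0.0496 and 0.422 CPM at 0.01 µg/kg, between 0.898 and 1.76 CPM at 1 µg/kg, between 3.19 and 7.05 CPM at 3 µg/kg and between 11.1 and 20.6 CPM at 10 µg/kg, and these 4 groups did not overlap. The log2 fold change against 0.01 µg/kg was 2.42 at 1 µg/kg (SE 0.435, adjusted p = 0.000802 by edgeR) and 5.84 at 10 µg/kg (SE 0.404, adjusted p = 6.82e-13).

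*Fabp12*, a fatty acid binding protein known from testis and retina, varied more between mice. It read 1.27, 6.07, 2.71, 1.41 and 0.714 CPM at 1 µg/kg and 0.0639, 0.353, 0.198, 0 and 0.295 CPM at 0.01 µg/kg (log2 fold change 3.64, SE 0.638, adjusted p = 0.000577 by edgeR). The groups did not overlap, although replicate 2 at 1 µg/kg was more than 2 times as high as any other mouse of its group. That mouse also had the highest *Ahrr*.

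*Siglecf*, a sialic acid receptor of eosinophils, is the clearest member of this list that levelled off. It read 1.2, 2.32, 1.02, 1.80 and 0.385 CPM at 1 µg/kg, above the 0 to 0.149 CPM at 0.01 µg/kg (log2 fold change 3.85, SE 0.505, adjusted p = 6.46e-06 by edgeR). The means at 1, 3 and 10 µg/kg were 72.6%, 96.1% and 114% of the mean at 30 µg/kg. *Scn8a*, a voltage-gated sodium channel of neurons, *Cdk15*, a cyclin-dependent kinase relative, and *A4gnt*, a glycosyltransferase of gastric mucins, had means at 10 µg/kg of 85.7%, 80.2% and 90.4% of those at 30 µg/kg.

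The remaining members with onset at 1 µg/kg were *Apol7c*, *Slc28a1*, *Cdh18*, *Adamts17*, *Mup-ps10*, *Dtnbos* and *C130080G10Rik*. *Slc28a1* encodes a nucleoside transporter of epithelia, *Cdh18* a cadherin of neurons and *Adamts17* a secreted protease. Their log2 fold changes at 1 µg/kg ran from 2.02 for *Cdh18* (adjusted p = 0.000823 by edgeR) to 3.47 for the pseudogene *Mup-ps10* (adjusted p = 0.00255), leaving aside *C130080G10Rik*, which had no read at 0.01 µg/kg. *Mup-ps10* belongs to the major urinary protein cluster, whose copies are near identical, and its reads are uncertain. *C130080G10Rik*, on chromosome 2 with the overlapping *A530058N18Rik* on the same strand, had no read in any vehicle mouse or any mouse at 0.01 µg/kg. It read 0.150, 0.469, 0.220, 0.257 and 0.110 CPM at 1 µg/kg, at least 10.5-fold higher than 3 reads over the 0.01 µg/kg group (adjusted p = 3.6e-05 by edgeR). *A530058N18Rik* had no read in the vehicle group or in any mouse from 0.01 to 0.3 µg/kg. It read 1.06, 0.485, 0.676, 0.456 and 0.612 CPM at 3 µg/kg, at least 28.8-fold higher than 3 reads over the 0.01 µg/kg group (adjusted p = 0.000101 by edgeR).

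Among the 24 members with onset at 3 µg/kg, epithelial genes made up 8, the largest share of any class. *Ovol1* (chr19:5549136-5560646), a zinc finger factor of epithelial differentiation, read 0.0958, 0, 0, 0 and 0.0844 CPM at 0.01 µg/kg. It read 0.150, 0.0587, 0.146, 0 and 0.110 CPM at 1 µg/kg and 0.835, 2.38, 2.17, 1.24 and 1.22 CPM at 3 µg/kg, so that its rise fell between these doses. The step was 4.14 on the log2 scale (SE 0.439, adjusted p = 3.98e-06 by edgeR), and 4 members and 0.0691% of all genes were called higher at 3 than at 1 µg/kg. From 3 to 10 µg/kg it rose again by 1.87 on the log2 scale (SE 0.278, adjusted p = 0.000221 by edgeR).

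*Pnliprp1*, a lipase-related protein of the exocrine pancreas, read 1.82, 1.31, 1.49, 0.391 and 1.96 CPM at 3 µg/kg and 5.58, 3.07, 3.73, 7.90 and 13.9 CPM at 10 µg/kg, against 0 to 0.127 CPM at 0.01 µg/kg. Both groups lay above the reference without overlap (log2 fold change 4.59 at 3 µg/kg, SE 0.666, adjusted p = 1.16e-05 by edgeR). Of 9 pancreas markers, 7 had no read in the vehicle group and 7 had none at 30 µg/kg. Their sum, 13.6 to 20.6 CPM in the vehicle mice and 3.91 to 6.12 CPM at 30 µg/kg, was nearly all *Cela1*, an elastase, with means of 16.7 and 5.24 CPM.

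*Krt25*, a keratin of the hair follicle sheath, had no read in any vehicle mouse and 0.0651 to 0.391 CPM at 3 µg/kg (log2 fold change 3.8, SE 0.686, adjusted p = 0.000726 by edgeR). At 10 µg/kg its 5 mice were close together, at 0.787, 0.846, 0.933, 0.883 and 1.04 CPM, above the highest value of 0.0422 CPM at 0.01 µg/kg. Its reads at 30 µg/kg, pooled over the 5 mice and divided by their pooled depth, were at least 76.6-fold higher than 3 reads over the vehicle group. *Amn*, which carries the vitamin B12 receptor in gut and kidney, *Mmp7*, a matrix protease of glands, and *Frem2*, *Lrrc19* and *Tinag* of kidney or epithelial basement membranes shared this onset.

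*Gpnmb*, a glycoprotein of lipid-laden macrophages and melanocytes, was the member on which mice at 30 µg/kg disagreed most among those above 10 CPM. It read 13.1, 38.7, 10.7, 7.88 and 29.2 CPM there, and 3.52, 1.27, 3.13, 3.48 and 4.17 CPM at 10 µg/kg. The log2 fold change at 3 µg/kg was 2.0 (SE 0.57, adjusted p = 0.0310 by edgeR), with values of 0.456 to 2.58 CPM against 0 to 0.675 CPM at 0.01 µg/kg, which overlap. The summed level of 7 lipid-laden macrophage markers, *Gpnmb* among them, was 71.8 to 96.9 CPM in the vehicle mice and 66.9 to 138 CPM at 30 µg/kg, most of it *Spp1*, with means of 55.4 and 59.9 CPM. The other markers went in different directions. *Mmp12*, a macrophage elastase, averaged 0.253 CPM in the vehicle group, 0.867 CPM at 10 µg/kg and 7.51 CPM at 30 µg/kg. From vehicle to 30 µg/kg the mean of *Itgax* went from 0.396 to 2.52 CPM, that of *Trem2* from 0.263 to 0.925 CPM, that of *Cd9* from 8.90 to 8.40 CPM and that of *Atp6v0d2* from 16 to 2.33 CPM. The part of these cells in the rise of *Gpnmb* was not tested.

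Detoxification and redox genes made up a small class of 7. All 7 were called at 10 µg/kg, against 83 of all 195 tested members and 3.02% of all genes. *Ahrr* is described above. *Gpx2*, a glutathione peroxidase of the gut lining, was at 0 or 0.0496 CPM at 0.01 µg/kg and read 0.855, 1.00, 2.13, 0.697 and 2.52 CPM at 10 µg/kg (log2 fold change 6.66, SE 0.799, adjusted p = 1.55e-07 by edgeR). *Aldh3a1*, an aldehyde dehydrogenase known as an AhR target, had no read at 0.01 µg/kg. It read 0.0342, 0.264, 0.0666, 0.511 and 0.503 CPM at 10 µg/kg, a mean at least 12.1-fold higher than 3 reads over the 0.01 µg/kg group (adjusted p = 0.000271 by edgeR). *Ptges*, a prostaglandin E synthase, rose at 10 µg/kg with a log2 fold change of 2.28 (SE 0.663, adjusted p = 0.0163 by edgeR).

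*Ugt1a7c*, a UDP-glucuronosyltransferase, read 0.256, 0.118, 0.149, 0.130 and 0.337 CPM at 0.01 µg/kg and 1.92, 1.69, 2.0, 1.90 and 4.17 CPM at 10 µg/kg, without overlap (log2 fold change 3.28, SE 0.386, adjusted p = 1.07e-07 by edgeR). Its last exons are shared with *Ugt1a1* and the other genes of the *Ugt1a* cluster, and reads there are not assigned to a single gene by the counting. *Ugt1a1* averaged 316 CPM in the vehicle group and 551 CPM at 30 µg/kg.

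*Duox1* and *Duoxa1* share this class and a locus. *Duox1* is an NADPH oxidase that makes hydrogen peroxide at epithelial surfaces, and *Duoxa1* is the factor that carries it to the membrane. They lie head to head on chromosome 2, with 1942 bases between *Duoxa1* (chr2:122302191-122313730, minus strand) and *Duox1* (chr2:122315672-122347972, plus strand). No read fell on either in the vehicle group or in any mouse from 0.01 to 0.3 µg/kg. At 10 µg/kg *Duoxa1* read 0.411, 0.264, 0.133, 0.0929 and 0.647 CPM and *Duox1* 0.0342, 0, 0.267, 0.0929 and 0.216 CPM. Both were called (adjusted p = 0.000677 and 0.0220 by edgeR), with means at least 13.5-fold and 5.33-fold higher than 3 reads over the 0.01 µg/kg group. The *Duox1* call was lost when only the 10 mice compared were fitted. At 30 µg/kg their means were 1.55 ± 0.305 and 0.844 ± 0.388 CPM (SD, n = 5). Exons of *Duoxa1* overlap *Duoxa2* on the other strand, which averaged 0 CPM in the vehicle group and 0.0104 CPM at 30 µg/kg.

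Onset at 10 µg/kg was the commonest, with 41 members, and their median level at 10 µg/kg was 44.3% of that at 30 µg/kg. *Ecel1* (chr1:87147655-87156521), an endopeptidase of neurons, reached the smallest share of its final level at 10 µg/kg. It had no read in 4 of 5 mice at 0.01 µg/kg, 0 to 0.0759 CPM at 3 µg/kg, 1.47, 0.370, 0.400, 0.929 and 1.65 CPM at 10 µg/kg and 14.6, 17.3, 13.7, 9.83 and 25.3 CPM at 30 µg/kg. All mice at 10 µg/kg were above all mice at lower doses. The step from 3 to 10 µg/kg was 4.52 on the log2 scale (SE 0.744, adjusted p = 0.00222 by edgeR), among 16 members and 0.294% of all genes called higher at that step, and the mean at 10 µg/kg was 5.97% of that at 30 µg/kg. The mean of *Pnliprp1* at 10 µg/kg was 28.9% of its mean at 30 µg/kg and that of *Ahrr* 71.2%.

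*Cnksr1*, a scaffold of Ras signalling, read 0.152, 0.274, 0.0711, 0.195 and 0.161 CPM at 3 µg/kg and 2.57, 1.64, 2.53, 1.72 and 1.98 CPM at 10 µg/kg. It had the smallest adjusted p of the 3 to 10 µg/kg step among the members (log2 fold change 3.47, SE 0.365, adjusted p = 1.48e-07 by edgeR). *Gipc2*, a PDZ-domain protein, and *Parm1*, a mucin-like protein of glands, rose at the same step by 2.25 and 2.34 on the log2 scale (adjusted p = 0.000371 and 0.000121 by edgeR). *Cd163l1*, a scavenger receptor of gamma delta T cells, rose by 3.22 (SE 0.626, adjusted p = 0.00464 by edgeR) and *Trim15*, a ubiquitin ligase of gut epithelium, by 3.29 (SE 0.568, adjusted p = 0.00222). *Fbxl16*, an F-box protein of the brain, was called narrowly at 10 µg/kg (log2 fold change 1.47, SE 0.496, adjusted p = 0.0408 by edgeR), and leaving out any of 7 of the 10 mice compared ended it.

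Normal tissue of expression was assigned from textbook knowledge for 137 of the 199 members, in 8 classes, and 62 were not assigned. The assignment was made after values were seen, so counts by class are given as description. The classes were leukocyte or platelet (39), dividing cells (32), nervous system or synapse (22), epithelium of skin, gut, kidney, airway or gland (19), testis or motile cilium (9), AhR feedback, conjugation and redox (7), muscle (5) and matrix and secreted factors (4). By gene class, 178 members were protein-coding, 89.4% against 83.4% of genes with more than 4 reads. Of the other 21, 6 were lincRNAs, 5 antisense RNAs and 5 pseudogenes of 3 annotation types.

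**Figure D4:**
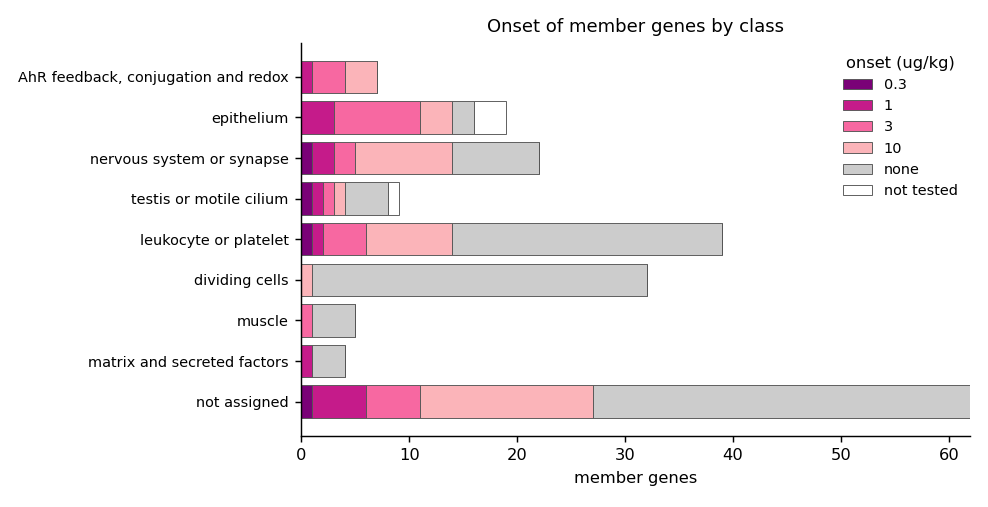
Number of members (x axis) by class of normal expression (y axis), with each bar divided by onset dose, from 0.3 µg/kg in the darkest shade to no onset in grey and not tested in white. All 7 AhR, conjugation and redox genes have an onset, against 14 of 19 epithelial genes (3 not tested), 14 of 39 leukocyte genes and 1 of 32 genes of dividing cells. Over all tested members 83 of 195 have an onset, which requires a call at 10 µg/kg, where 3.02% of all genes were called higher. Classes were assigned after values were seen, so these counts are description.

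Epithelial members were called in 14 of the 16 tested at 10 µg/kg, against 83 of all 195 tested members and 3.02% of all genes. The median log2 fold change of the 16 was 3.54. Their summed level was 1.43 to 2.15 CPM at 0.01 µg/kg, and the mice at 0.03 and 0.1 µg/kg, with 1.13 to 1.51 and 1.46 to 2.06 CPM, overlapped that range. It was 2.29 to 3.17 CPM at 0.3 µg/kg, 3.81 to 5.49 CPM at 1 µg/kg, 11 to 16.2 CPM at 3 µg/kg and 33.1 to 56.4 CPM at 10 µg/kg. From 0.1 µg/kg upward these ranges did not overlap and followed the dose in order. The summed level of 13 markers of stratified epithelium, none of them a member, was 1.92 to 2.23 CPM in the vehicle mice and 1.10 to 2.44 CPM at 30 µg/kg. *Krt10* made up most of it, with means of 2.03 and 1.51 CPM, while *Sprr1a* averaged 0.0466 and 0.186 CPM and *Ivl* 0 and 0.0543 CPM. The 7 kidney markers had at most 0.0850 CPM together in any mouse at 30 µg/kg. Intestinal markers, 9 in number, summed to 79.7 to 117 CPM in the vehicle mice, 102 to 130 CPM at 10 µg/kg and 105 to 155 CPM at 30 µg/kg, most of it *Fabp2*, a fatty acid binding protein, with means of 85.4, 112 and 135 CPM. The 6 lung markers summed to 1.34 to 3.81 CPM in the vehicle mice and 3.74 to 6.79 CPM at 30 µg/kg, most of it the surfactant gene *Sftpa1*, with means of 2.18 and 3.85 CPM. Together 7 bile duct markers held 7.27 to 15 CPM in the vehicle group, 18.9 to 28.8 CPM at 10 µg/kg and 26.4 to 64.1 CPM at 30 µg/kg. Nearly all of that difference lay in *Prom1*, with means of 5.10, 18.6 and 32.2 CPM. *Krt7* and *Krt19* averaged 0.597 and 0.697 CPM in the vehicle group and 1.01 and 1.14 CPM at 30 µg/kg, and *Epcam* 1.09 and 1.10 CPM. None of the markers is a member, and their part in the epithelial rise was not tested.

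Neural and synaptic members were called in 14 of 22 at 10 µg/kg, against 83 of all 195 tested members and 3.02% of all genes. Their median log2 fold change was 1.65. All 22 had a log2 fold change above 0, as had 162 of the 195. Besides *Sorcs3*, *Cdh18*, *Scn8a* and *Ecel1* they include *Nrg1*, the ligand of ErbB receptors, which read 0.0958, 0, 0.0992, 0.0650 and 0.0844 CPM at 0.01 µg/kg. *Nrg1* read 0.380, 0.316, 0.391, 0.391 and 0.225 CPM at 3 µg/kg, without overlap (log2 fold change 2.01, SE 0.556, adjusted p = 0.0254 by edgeR). The antisense *Gm26578* lies within *Nrg1* and overlaps its exons, and since the counting is not stated to use strand the reads of the 2 genes cannot be told apart.

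The alpha-2 adrenergic receptors *Adra2a* and *Adra2c* were called from 10 and 3 µg/kg. At 10 µg/kg *Adra2c* read 0.958, 0.423, 0.6, 0.743 and 0.359 CPM against at most 0.0211 CPM at 0.01 µg/kg (log2 fold change 5.50, SE 0.869, adjusted p = 3.21e-05 by edgeR). *Rtn4rl2*, a Nogo receptor relative, rose by 3.95 at 10 µg/kg (SE 0.686, adjusted p = 8.17e-05 by edgeR). The summed level of 13 neuronal and neuroendocrine markers was 19.6 to 39.3 CPM in the vehicle mice and 25.2 to 38 CPM at 30 µg/kg, with 7 of the 13 at 0 reads in each of those groups. *Syt1* made up nearly all of it, with means of 27.5 and 30.4 CPM. *Rbfox3* averaged 0.515 CPM in the vehicle group, 0.994 CPM at 10 µg/kg and 1.2 CPM at 30 µg/kg, and *Tubb3* 0.0213, 0.0527 and 0.0833 CPM. The part of such cells in the rise of the neural members was not tested.

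Testis and cilium genes were led by *Insl6* and *Fabp12*, with *Zmynd10*, an assembly factor of ciliary dynein, called from 3 µg/kg. Of the 8 tested, 4 were called at 10 µg/kg, against 83 of all 195 tested members and 3.02% of all genes. Without replicate 5 of the 0.01 µg/kg group, 6 of the 8 were called. *Zmynd10* read 1.16, 1.16, 1.73, 1.49 and 2.84 CPM at 10 µg/kg and 0 to 0.232 CPM at 0.01 µg/kg (log2 fold change 3.86, SE 0.49, adjusted p = 4.62e-07 by edgeR). Markers of male germ cells stayed near 0. The 9 genes summed to at most 0.436 CPM in the vehicle mice and 0.363 CPM at 30 µg/kg.

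Leukocyte and platelet members formed the largest assigned class and a weaker pattern. Of 39, 14 were called at 10 µg/kg (median log2 fold change 0.86), against 83 of all 195 tested members and 3.02% of all genes. Without replicate 5 of the 0.01 µg/kg group, 18 of the 39 were called (median 1.41). Their summed level was 17.0 CPM in that mouse and 4.64 to 7.89 CPM in the other 4 of the group, and it was 21.6 to 27.1 CPM at 10 µg/kg. *Ccr1*, a chemokine receptor of myeloid cells, read 0.787, 0.899, 1.2, 0.743 and 0.683 CPM at 10 µg/kg against 0.0639, 0.235, 0.0992, 0 and 0.316 CPM at 0.01 µg/kg (log2 fold change 2.26, SE 0.384, adjusted p = 6.08e-05 by edgeR). *Ncr1* and *Cd160*, receptors of natural killer cells, were called from 3 µg/kg with log2 fold changes of 1.84 and 1.31 (adjusted p = 0.00561 and 0.0397 by edgeR). *Cd160* overlaps exons of the abundant *Pdzk1* on the other strand. *Mmp8*, a collagenase of neutrophils, was not called (log2 fold change 1.29, adjusted p = 0.277 by edgeR) and was called without the mouse that stood apart, where it had read 0.337 CPM against 0 in the other 4.

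None of the leukocyte members is in the marker lists of leukocytes other than *Gpnmb*, so the lists are a separate reading. The 10 monocyte and macrophage markers summed to 106 to 175 CPM in the vehicle mice, 182 to 278 CPM at 10 µg/kg and 119 to 364 CPM at 30 µg/kg, with none at 0 reads. The 9 T and NK cell markers summed to 1.98 to 5.58 CPM in the vehicle mice and 3.12 to 7.80 CPM at 0.01 µg/kg. They summed to 6.29 to 7.26 CPM at 10 µg/kg, within the range at 0.01 µg/kg, and to 4.89 to 10.1 CPM at 30 µg/kg. The 8 B and plasma cell markers summed to 7.27 to 9.70 CPM in the vehicle mice, 5.66 to 17.5 CPM at 0.01 µg/kg, 10.7 to 17.6 CPM at 10 µg/kg and 16 to 23.1 CPM at 30 µg/kg. The 8 neutrophil markers summed to 0.469 to 1.07 CPM in the vehicle mice and 2.17 to 6.46 CPM at 10 µg/kg, and 17.6 CPM in the highest mouse at 0.01 µg/kg. The part of these cells in the rise of the members was not tested.

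**Figure D5:**
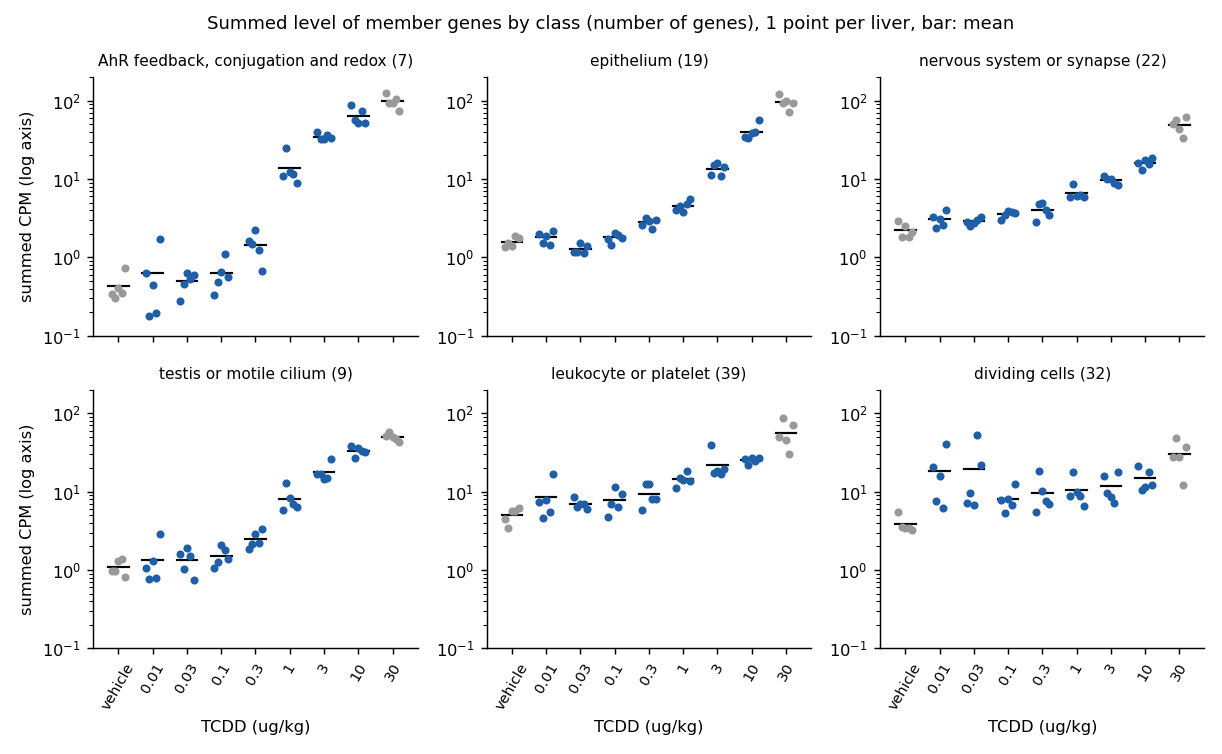
Summed CPM of the members of 6 classes on a log axis in each of the 45 livers by TCDD dose, with a bar at the mean of 5 mice and grey points for the vehicle and 30 µg/kg groups. The means of all 6 classes rise at each dose from 0.1 to 10 µg/kg. For the 32 genes of dividing cells, low in the vehicle group, the mean was 18.3 CPM at 0.01 µg/kg. It was 8.07 CPM at 0.1 µg/kg and 14.7 CPM at 10 µg/kg. Genes of this class already reach 40.9 and 53 CPM in single mice at 0.01 and 0.03 µg/kg.

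Genes of dividing cells were already read in mice at the lowest doses. These 32 members encode parts of the mitotic spindle, kinetochore, replication machinery and histones, and are silent in resting hepatocytes. Their summed level was 5.47, 3.55, 3.46, 3.43 and 3.20 CPM in the vehicle mice and 27.3, 48.6, 28.0, 12.2 and 37 CPM at 30 µg/kg, which the choice of genes fixed. At 0.01 µg/kg it was 20.9, 7.64, 15.8, 6.18 and 40.9 CPM. At 0.03 µg/kg it was 7.22, 9.52, 6.76, 53 and 22.1 CPM, so that replicate 4 at 0.03 µg/kg was above every mouse at 30 µg/kg. The lowest of the 35 mice between 0.01 and 10 µg/kg was at 5.34 CPM, close to the highest vehicle mouse.

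Of the 32, 1 was called higher at 10 µg/kg, against 83 of all 195 tested members and 3.02% of all genes. None was called higher at 3 µg/kg, against 46 of the 195 and 1.45% of all genes. The median log2 fold change was -0.43 and -0.80 at these doses. The called gene was *Sapcd2*, a regulator of spindle orientation, which read 0.684, 0.106, 0.2, 0.465 and 0.180 CPM at 10 µg/kg and 0 to 0.0633 CPM at 0.01 µg/kg (log2 fold change 3.23, SE 0.691, adjusted p = 0.00111 by edgeR). *Kntc1*, a kinetochore protein, was the member called lower, with a log2 fold change of -1.84 at 3 µg/kg (SE 0.556, adjusted p = 0.0425 by edgeR). At 10 µg/kg, 5 of the 32 had a log2 fold change above 0. Without replicate 5 of the 0.01 µg/kg group the median was 0.16 and the count stayed at 1.

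*Prc1*, which bundles spindle microtubules, shows the pattern. It read 1.41, 0.353, 1.14, 0.520 and 3.00 CPM at 0.01 µg/kg and 1.64, 0.899, 0.400, 1.49 and 0.863 CPM at 10 µg/kg, which overlap (log2 fold change -0.43, SE 0.608, adjusted p = 0.698 by edgeR). *Foxm1*, the transcription factor of the G2 and M phases, had a log2 fold change of -0.42 (SE 0.5, adjusted p = 0.634 by edgeR). Markers of division that are not members ran with the class in the same mice. *Mki67* was at 15.5 CPM in replicate 4 at 0.03 µg/kg, 11.1 CPM in replicate 5 at 0.01 µg/kg and 0.939 to 1.86 CPM in the vehicle group, and *Top2a* was at 10.7, 10.2 and 0.582 to 0.821 CPM.

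Muscle and matrix members were few. *Acta1*, skeletal muscle actin, read 4.52, 3.16, 2.46, 1.67 and 1.87 CPM at 30 µg/kg and 0.308, 0.159, 0.133, 0.372 and 1.08 CPM at 10 µg/kg, and had no read in any of the 10 mice at 0.3 and 1 µg/kg. Single mice broke this order, with 2.48 CPM in replicate 3 at 0.01 µg/kg and 4.52 CPM in replicate 3 at 0.1 µg/kg. Those 2 mice also held *Myh4* at 1.69 and 1.41 CPM and *Ckm* at 0.992 and 2.64 CPM, genes of skeletal muscle without a read in the vehicle group but for 1 read of *Ckm*. At 30 µg/kg *Myh4* and *Ckm* had no read. From vehicle to 30 µg/kg the mean of the muscle marker *Tnni2* went from 0.0332 to 0.147 CPM and that of *Actc1* from 0 to 0.138 CPM. *Tnnt3* went from 0.0120 to 0.0238 CPM and *Mylpf* from 0.628 to 0.534 CPM. *Acta1* was not called at 10 µg/kg (log2 fold change -0.36, SE 1.26, adjusted p = 0.898 by edgeR), and the fold change was 2.56 on that scale without replicate 3 of the 0.01 µg/kg group. *Cacng1*, a subunit of the muscle calcium channel, was the muscle gene with an onset, at 3 µg/kg. *Timp1*, an inhibitor of matrix proteases and a marker of stellate cells, was not called at any dose (log2 fold change 0.84 at 10 µg/kg, SE 0.707, adjusted p = 0.471 by edgeR). The 7 stellate cell and myofibroblast markers, *Timp1* among them, summed to 24.6 to 36.7 CPM in the vehicle mice. They summed to 29.9 to 37.4 CPM at 10 µg/kg and 30.5 to 55.3 CPM at 30 µg/kg. Between vehicle and 30 µg/kg *Postn* went from 14.7 to 15.3 CPM, *Tagln* from 4.51 to 9.47 CPM and *Lox* from 0.474 to 2.32 CPM.

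Some members lay next to each other. *Apol7c*, *Apol10b* and *Gm8221* are neighbours on chromosome 15, with 50503 and 25709 bases between them, and belong to the apolipoprotein L family, whose copies are similar. *Apol7c* was called from 1 µg/kg and *Gm8221* from 3 µg/kg. *Apol10b* was not called at 10 µg/kg (log2 fold change 1.60, SE 0.57, adjusted p = 0.0539 by edgeR) and was called with DESeq2 and without replicate 5 of the 0.01 µg/kg group. In all, 71 of the 199 members overlap another annotated gene and 33 do so by exons. Where the partner is expressed, part of the reads could come from it, which was not tested.

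The thresholds cut through a continuum. The vehicle mean was 0.1998 CPM for *Gipc2*, 0.1996 CPM for *A230103J11Rik* and 0.199 CPM for *Ncr1*, just inside, and 0.201 CPM for *Matk*, 0.202 CPM for *Polq* and 0.202 CPM for *Ccr7*, just outside. At 30 µg/kg the mean was 0.501 CPM for *Nme5* and 0.505 CPM for *Zfp423*, just inside, and 0.499 CPM for *Trim30c* and 0.497 CPM for *Espl1*, just outside. The minimum of 3 reads kept out *Cyp2c53-ps*, at 3.91 CPM, and *Dlk1*, at 1.78 CPM. Most members were rare transcripts even at 30 µg/kg, with 117 at 0.5 to 1 CPM, 70 at 1 to 5 CPM and 12 at 5 CPM or more. In the vehicle group 11 had no read and 21 had 1 to 3 reads in all 5 mice together.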

How the data were processed

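Whole-number read counts per Ensembl gene were deposited by the authors for each of 45 livers. Per the labels and the study's methods, TruSeq libraries were sequenced and reads were checked with FastQC 0.11.2, aligned to GRCm38 (release 74) with TopHat 1.4.1, handled with SAMtools 0.1.19 and counted with HTSeq 0.6.1. Whether counting used strand is not given in the sources used here, nor is the sequencing pool of each mouse. No 2 of the 990 pairs of libraries held identical counts. Replicate numbers follow accession order.

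Rows that name no gene (no feature, ambiguous or not uniquely aligned) took 45.3% to 60.9% of the counts per mouse and were left out. CPM was computed from the summed reads on genes. Counts of the 35 mice at 0.01 to 10 µg/kg were fitted with edgeR 4.0.16 (R 4.3.3), TMM scaling, quasi-likelihood tests, genes with more than 4 reads in any of these mice and Benjamini-Hochberg adjustment over all genes tested. The script was tested on simulated data. DESeq2 1.42.0, other scalings, filters and subsets of mice were alternatives. Values are given for 5 mice per group, and precision is limited by the 11767284 to 56509899 reads on genes per mouse.

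The members, gene lists and tests were chosen with earlier results of these data known, and normal tissues were assigned after values were seen. Genes named are the 25 members highest at 30 µg/kg, the 15 with the lowest onset, members in marker lists, family members and neighbours of these, and up to 5 on each side of each threshold. *Duox1*, *Duoxa1*, *Sapcd2*, *Kntc1*, *Prc1*, *Foxm1*, *Mmp8*, *Adra2c*, *Cacng1*, *Ptges* and the other members beyond that rule were chosen after their values were seen. Gene positions and exons came from GENCODE M21 (GRCm38) and promoters from RefSeq (GRCm38.p6).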

Additional observations from a re-analysis of the deposited data

Results flagged for a closer look

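Summed levels of 9 classes of members, the unassigned one included, and of all members were compared among the 5 mice of each of the 9 groups, and 13 of the 90 sets of 5 held a mouse far from the other 4. The cutoff is passed by chance in about 1 in 20 sets of independent, normally distributed values. These sets share mice, the set of all members holds every class, and the distribution of the sums was not checked. The number flagged can therefore not be set against that rate.

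Replicate 5 at 0.01 µg/kg, the mouse with high *Cyp1a1*, held 17.0 CPM of leukocyte and platelet members against 4.64 to 7.89 CPM in the other 4, and 2.89 CPM of testis and cilium members against 0.764 to 1.29 CPM. Replicate 2 at 1 µg/kg, which had the highest *Ahrr* of its group, held 24.7 CPM of AhR, conjugation and redox members against 8.95 to 12.4 CPM, and 8.57 CPM of neural members against 5.91 to 6.23 CPM. Replicate 1 at 3 µg/kg held 38.9 CPM of leukocyte and platelet members against 16.6 to 19.5 CPM, and 2.35 CPM of matrix members against 1.06 to 1.28 CPM. Replicate 3 at 0.1 µg/kg held 4.76 CPM of muscle members against 0.243 to 0.569 CPM, of which *Acta1* made up 4.52 CPM, and 0.587 CPM of matrix members against 0.379 to 0.425 CPM.

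Replicate 5 at 3 µg/kg held 26.1 CPM of testis and cilium members against 14.7 to 16.8 CPM, and its *Fabp12* was at 16.8 CPM. Replicate 5 at 10 µg/kg held 56.4 CPM of epithelial members against 33.1 to 39.5 CPM, and its *Pnliprp1* was at 13.9 CPM and its *Pkp1* at 20.6 CPM. In the vehicle group, replicate 1 held 5.47 CPM of dividing-cell members against 3.20 to 3.55 CPM and 0.616 CPM of muscle members against 0.232 to 0.291 CPM, and replicate 5 held 0.727 CPM of AhR, conjugation and redox members against 0.300 to 0.411 CPM.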

How the results depend on the processing

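No paired analysis was possible because the replicate numbers were given in accession order and tie no mice together. The number called higher at 10 µg/kg was 50 of the members when genes were filtered by filterByExpr, which tested fewer genes, and 74 to 88 with DESeq2, other scalings, other filters or other mice in the fit. From 3 to 10 µg/kg filterByExpr called 10 members. With only the 10 mice compared, 0 members were called at 0.3 µg/kg and 2 from 0.3 to 1 µg/kg. Thresholds of 0.1 and 1 CPM in place of 0.2 and 0.5 CPM left 42 members. Leaving out each mouse in turn gave ranges of 1 to 4, 14 to 17, 34 to 53 and 72 to 94 calls at 0.3, 1, 3 and 10 µg/kg. It gave 2 to 5 calls from 0.3 to 1 µg/kg, 2 to 5 from 1 to 3 µg/kg and 13 to 19 from 3 to 10 µg/kg, and 188 to 245 members. From 0.3 to 1 µg/kg, 2 were left without replicate 2 at 1 µg/kg. From 1 to 3 µg/kg, 2 were left without replicate 1, 3 or 4 at 1 µg/kg or replicate 2 or 3 at 3 µg/kg. The cause of these changes was not tested. For the 59 named members at 10 µg/kg, 1004 of 1035 alternative values kept direction and side of the threshold, 18 lost the call (*Ecel1*, *Fbxl16*, *Trim16* and *Duox1*) and 8 gained it (*Apol10b*, *Kntc1* and *Mmp8*). A call in this count could be of higher or of lower. The sign changed for *Acta1*, whose log2 fold change ran from -1.13 to 2.56 over the mice left out, the latter without replicate 3 at 0.01 µg/kg. It also changed, without replicate 5 at 0.01 µg/kg, for *Foxm1* (-0.73 to 0.0575 over the mice left out), *Aurkb* (-0.75 to 0.20), *Ccnb1* (-1.36 to 0.0123) and *Prc1* (-0.65 to 0.15). With 1 read worth 0.0177 to 0.0850 CPM, differences among values near 0.1 CPM rest on few reads.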

Other observations

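Many of the nearest upstream genes of the members were already expressed in untreated liver, and *Ap5b1* and *Uap1l1* are given as examples that rose. Others changed little. *Pdcd6*, upstream of *Ahrr*, averaged 69.5 CPM in the vehicle group and 79.4 CPM at 30 µg/kg, and *Nup133*, upstream of *Acta1*, 11.1 and 12.7 CPM. *Ap5b1*, which lies 7379 bases upstream of *Ovol1*, averaged 1.13 CPM in the vehicle group and 1.53, 3.19, 8.24 and 12.8 CPM at 1, 3, 10 and 30 µg/kg. *Uap1l1*, which lies 6639 bases upstream of *Sapcd2*, averaged 2.46 CPM in the vehicle group and 4.41, 5.44, 13.6 and 23.7 CPM at these doses. Neither is a member. These genes were picked after their values were seen, and no test was made.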
